A study of Mus musculus with 27 samples.

Results

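The cytosolic sulfotransferases (Sult), the UDP-glucuronosyltransferases (Ugt) and the carboxylesterases (Ces) of the mouse gut were followed across 3 intestinal regions and 2 diets. Members were all rows of the gene count table whose Ensembl identifier belongs to a protein-coding mouse gene with a symbol that starts with Sult, Ugt or Ces and a digit. This rule uses no measured value and gave 62 of the 52550 genes in the table: 21 sulfotransferases, 22 glucuronosyltransferases and 19 carboxylesterases. The libraries hold poly-A RNA of 3 gut regions (colon, cecum and ileum) from male C57BL/6 mice, 6 weeks old at the start and kept on their feed for 60 days. The arsenic feed held 30 µg of arsenic per g, of which sodium arsenite made up 72.7%, dimethylarsinic acid (DMA) 19.0%, arsenate 7.3% and monomethylarsonic acid (MMA) 1.0%. Control mice ate the standard feed. Colon gave 4 arsenic and 5 control libraries, cecum 5 arsenic and 4 control, and ileum 5 arsenic and 4 control, with 15717600 to 18208518 counts each. Each diet group held 10 mice, but the labels do not say that the libraries of a group came from separate mice, so p-values measure the spread between these libraries.

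Sulfotransferases move a sulfonate group from the donor PAPS to phenols, catecholamines, thyroid hormones and steroids. Glucuronosyltransferases of the endoplasmic reticulum attach glucuronic acid from UDP-glucuronate to phenols, bilirubin, bile acids and steroids, and both reactions make a compound more soluble in water and easier to export. Carboxylesterases cut ester and amide bonds in drugs, food esters and lipids, and so expose groups that the transferases can use. In the gut, the surface epithelium is known as the main site of all 3 families, and it meets plant phenols, drugs and bile acids before the liver does.

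The regional labels were held against marker genes. Summed large intestine markers, in CPM (counts scaled to library size), were 5700 to 11457 in arsenic colon and 5448 to 13973 in control colon, 26784 to 31426 in arsenic cecum and 31117 to 39216 in control cecum, and at most 430.4 in any ileum library. By single marker genes, some libraries stood apart within their group. The distal colon gene Hoxb13 was at 0 CPM in colon control 1, and at 45.9 to 238.9 CPM in the other 4 colon control libraries. The large intestine sum of colon control 1, at 13973 CPM, was the highest of control colon. The distal ileum gene Fabp6 was at 6.13 and 1.33 CPM in ileum arsenic 14 and 15, and at 982 to 4180 CPM in the other 3 ileum arsenic libraries. The sum of the 5 ileum markers, with Fabp6 among them, was 7416, 8465, 7414, 3087 and 9157 CPM in ileum arsenic 11 to 15. Ileum arsenic 15 was thus lowest in Fabp6 but highest in the sum. The ileum diet differences of Ces2f and Ces2g, the regional difference of Ces1d and the interaction of Ces2h are also given without ileum arsenic 14 and 15 together. Counts of calls in the colon are also given without colon control 1. Other results are given with these libraries or with 1 library left out.

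Most members had no count or few counts. A low count says little about transcription where most exon sequence is shared with other genes. The share that belongs to 1 gene was 5.51% for Ugt2a2, 1.17% for Ugt2a1 and 35.7% for Ugt1a10. No library held a count for 13 members, among them Sult2a1 to Sult2a7, whose products sulfonate steroids and bile acids in liver, and Sult3a1, Sult3a2, Ugt1a10, Ugt2a2, Ugt3a1 and Ces1a. A mean of at least 1 CPM in some group was reached by 27 members and a mean of at least 100 CPM by 12. Members described are the 22 that reached 10 CPM in some group, 2 more, Ces2f and Ces2h, that passed a test of diet, and Sult4a1, Ces1c and Ugt1a1, which were chosen after their values were seen. Among the 25 members with counts that neither criterion takes, the highest group mean was 9.09 CPM, for Ugt1a1, the bilirubin glucuronosyltransferase, in arsenic ileum. Only 17.3% of Ugt1a1 exon sequence is covered by no other gene, and per kb of that sequence it averaged 23.6 CPM there. Together the 62 genes took 0.319% of counts in arsenic colon and 0.321% in control colon, 0.701% in arsenic cecum and 0.712% in control cecum, and 0.365% in arsenic ileum and 0.388% in control ileum. Fewer cells of a type and less RNA per cell cannot be told apart in these bulk samples.

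Each region had its own leading members. Levels were compared between genes as CPM per kb of exon sequence that no other gene covers. In the colon this level was highest for Ces2c, at 260.4 ± 25.9 CPM per kb on arsenic feed and 242.7 ± 23.4 on control feed (SD, n = 4 and 5). In the cecum the leading members were Sult1d1, at 478.6 ± 25.2 CPM per kb on arsenic feed and 433.4 ± 48.5 on control feed, Ces2e, at 423.5 ± 44.7 and 406.6 ± 26.7, and Ces2c, at 409.3 ± 61.6 and 449.2 ± 34.5, in the same order of feeds (SD, n = 5 and 4). The spread between libraries of these 3 overlapped. In the ileum Ces2e, a carboxylesterase of intestine, led with 455.0 ± 127.7 CPM per kb on arsenic feed and 487.6 ± 27.5 on control feed. Among glucuronosyltransferases Ugt2b34 took 67.8 to 77.4% of the family's counts in every group, a share that is not corrected for exon length. Per kb its lead was smaller in the cecum, at 209.4 CPM on arsenic feed and 211.8 on control feed, against 130.6 and 167.2 for Ugt1a7c. On control feed the 2 genes had 132.5 and 65.0 CPM per kb in colon, and 130.5 and 26.4 in ileum.

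**Figure D1:**
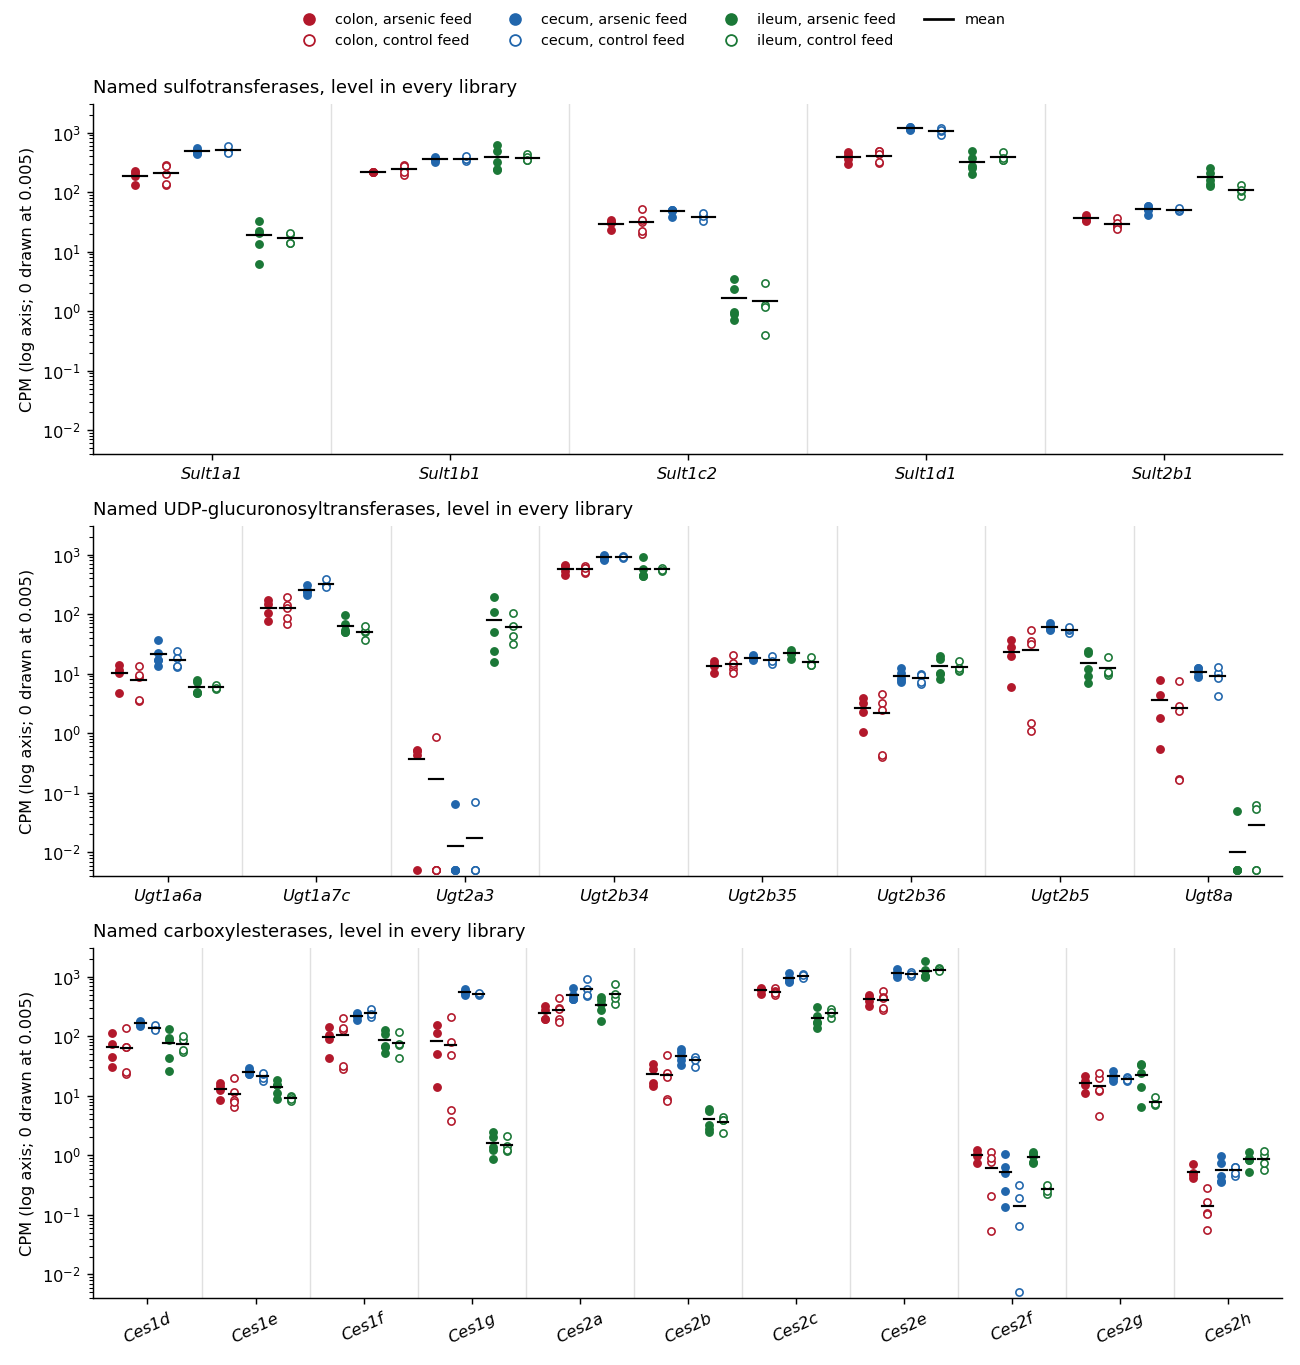
Level of the 24 named members in every library, in CPM on a log axis, for colon, cecum and ileum on arsenic feed (filled) and control feed (open); bars mark group means and a level of 0 is drawn at 0.005. Sult1a1, Sult1c2, Ugt8a, Ces1g and Ces2b sit far lower in the ileum, while Ugt2a3 is almost absent outside the ileum.

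More members were called between regions than between diets. Calls are those of edgeR's quasi-likelihood test at an adjusted p under 0.05. In cecum against ileum on arsenic feed, 15 of 31 tested members were higher and 5 lower, where 25% of all 17022 genes were higher and 27.1% lower (52.2% in all). On control feed 14 of 28 were higher and 4 lower, against 28.4% and 26.5% of all 16882 genes (54.9% in all). In colon against cecum on arsenic feed 2 of 31 were higher and 18 lower, against 22.5% and 16.2% of all genes (38.6% in all), and on control feed 1 of 28 was higher and 13 lower, against 21.9% and 25.3% (47.2% in all). In colon against ileum on arsenic feed 9 of 31 were higher and 7 lower, against 32.8% and 26.3% of all genes (59.1% in all), and on control feed 9 of 28 were higher and 8 lower, against 27.7% and 24.5% (52.2% in all). Members thus leaned to the cecum in both comparisons that include it, while colon against ileum was close to the background. Summed epithelial markers also had their highest median in the cecum, at 12763 to 15177 CPM in arsenic colon, 16143 to 19144 in arsenic cecum and 11536 to 19133 in arsenic ileum, and at 12425 to 14496, 18911 to 21254 and 13069 to 15247 CPM in the same regions on control feed. Smooth muscle markers summed to 6441 to 9628 CPM in arsenic colon, 3161 to 5157 in arsenic cecum and 3576 to 4005 in arsenic ileum, and to 5382 to 7707, 2738 to 3715 and 3532 to 6759 CPM in the same regions on control feed, and the part of either marker group in the regional calls was not tested. The median member difference in colon against cecum was -0.63 log2 on arsenic feed and -0.92 on control feed, against 0.02 and -0.05 over all genes. In cecum against ileum the groups did not overlap for 17 of 31 members on arsenic feed (36.4% of all genes) and 22 of 28 on control feed (54.5%), in colon against cecum for 19 of 31 (43.6%) and 13 of 28 (36.8%), and in colon against ileum for 13 of 31 (46%) and 14 of 28 (39.4%). In colon against cecum the arsenic feed count of calls was 12 without colon arsenic 13 and 13 without colon arsenic 11, and the control feed count was 19 without colon control 1.

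The 2 feeds gave largely the same regional calls in libraries that they do not share. Of the members called in cecum against ileum, 17 were called on both feeds, which is 85% of the arsenic feed calls and 94.4% of the control feed calls. In colon against cecum 13 were shared (65% and 92.9%), and in colon against ileum 14 (87.5% and 82.4%), each in the same direction on both feeds. Of the 24 named members, 21 had the same order of the 3 regional means on both feeds, and 15 on arsenic feed and 17 on control feed were highest in the cecum. The shares of all genes called on both feeds, or with the same order on both, were not counted. Up to 5 tested members per comparison passed the low-count filter through 1 region only. In cecum against ileum these were Ces1c, Ugt2a3, Ugt2b38 and Ugt8a on both feeds, and Sult6b2 on arsenic feed. The first named, Ces1c, Ugt2a3, Ugt2b38 and Ugt8a, are all among the 17 calls shared by the feeds. Regional calls described below held in every fit that left out 1 library unless a library is named.

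**Figure D2:**
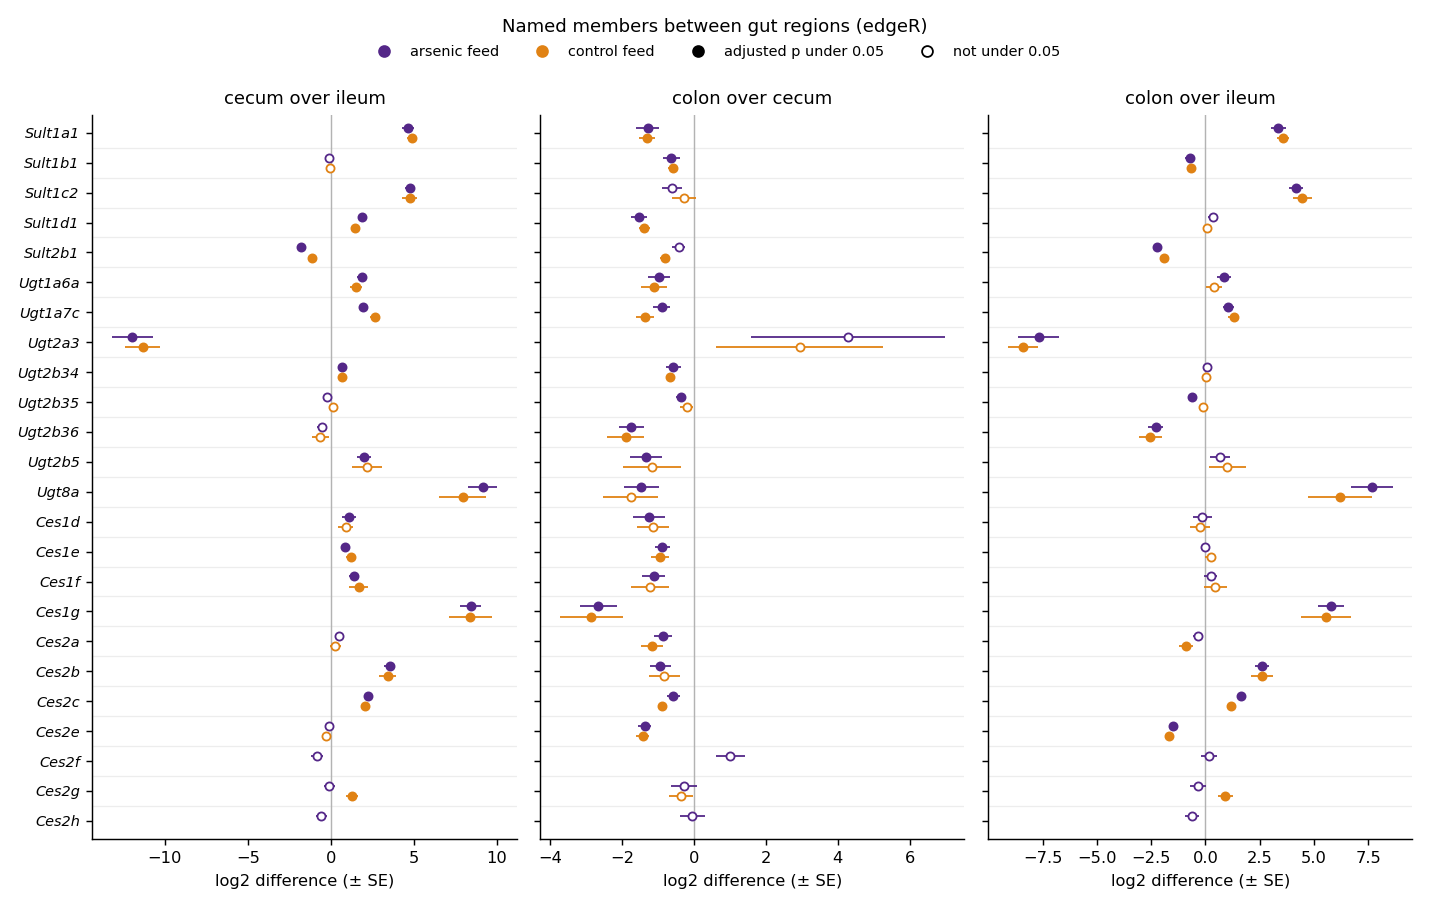
Log2 difference between regions with its SE from the edgeR fit, for the named members on arsenic feed (upper point of each pair) and control feed (lower point); filled points have an adjusted p under 0.05. In the middle panel every filled point lies left of 0, and in each panel most pairs of points lie close together. Members that the low-count filter removed have no point.

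Among sulfotransferases, Sult1a1, the main phenol sulfotransferase, was a gene of the large intestine. Its CPM averaged 186.5 ± 39.1 in arsenic colon, 482.4 ± 42.0 in arsenic cecum and 19.0 ± 9.85 in arsenic ileum (SD, n = 4, 5 and 5). On control feed it averaged 205.9 ± 73.6 in colon, 511.1 ± 67.3 in cecum and 17 ± 3.55 in ileum (SD, n = 5, 4 and 4). Cecum was 25.1-fold above ileum on arsenic feed (log2 4.65 ± 0.35, adjusted p 1.00e-07) and 29.9-fold on control feed (4.90 ± 0.29, 1.49e-08). No cecum library overlapped an ileum library. The bases before its start are shown because the gene has one of the steepest regional patterns of the set. They come from the RefSeq table of build GRCm38.p6, minus strand of chr7:126676433-126676668, after 14 bases that lie in an annotated exon were left out. Capitals mark GTTAAT, the half-site bound by hepatocyte nuclear factor 1.
Sult1a1: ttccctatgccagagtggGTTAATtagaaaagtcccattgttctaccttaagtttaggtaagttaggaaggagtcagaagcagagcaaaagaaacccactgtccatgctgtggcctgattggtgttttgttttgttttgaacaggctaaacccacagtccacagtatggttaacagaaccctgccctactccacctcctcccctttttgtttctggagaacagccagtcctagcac

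Sult1c2, another member of the phenol-sulfonating SULT1 group, followed the same pattern at lower levels, with 29.5 ± 4.70 CPM in arsenic colon, 47.6 ± 5.11 in arsenic cecum and 1.67 ± 1.18 in arsenic ileum. Its cecum was 27.3-fold above ileum on arsenic feed (log2 4.77 ± 0.32, adjusted p 3.17e-08) and 26.8-fold on control feed (4.75 ± 0.44, 1.87e-06). Sult1d1, which sulfonates dopamine and other catecholamines in mice, was 3.68-fold higher in cecum than in ileum on arsenic feed (log2 1.88 ± 0.20, adjusted p 2.05e-06) and 2.75-fold on control feed (1.46 ± 0.16, 3.81e-06). The neighbouring Sult1b1, a thyroid hormone and phenol sulfotransferase whose gene lies 16.4 kb away on chromosome 5, showed no such step between cecum and ileum. Sult1b1 averaged 359.7 ± 23.3 CPM in arsenic cecum and 380.8 ± 164.8 in arsenic ileum, and 366.0 ± 29.2 in control cecum and 378.3 ± 37.4 in control ileum, with log2 differences of -0.09 ± 0.22 and -0.06 ± 0.12.

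Sult2b1, which makes cholesterol sulfate, ran the other way and was highest in the ileum. It averaged 36.3 ± 4.09 CPM in arsenic colon, 51.5 ± 6.48 in arsenic cecum and 177.1 ± 53.9 in arsenic ileum. On control feed it averaged 28.8 ± 4.88 CPM in colon, 50.4 ± 2.995 in cecum and 109.0 ± 19.2 in ileum. Cecum fell below ileum by 1.79 ± 0.18 log2 on arsenic feed (adjusted p 8.15e-07) and by 1.12 ± 0.14 on control feed (1.07e-05). Sult4a1, known mainly from brain, was the only sulfotransferase called higher in colon than in cecum on either feed. It averaged 7.62 ± 0.95 CPM in arsenic colon and 2.35 ± 0.31 in arsenic cecum (log2 1.78 ± 0.18, adjusted p 4.40e-06), and 7.40 ± 2.04 in control colon and 2.63 ± 0.58 in control cecum (1.49 ± 0.29, 0.000780). Summed markers of enteric neurons were also higher in colon, at 67.8 to 87.8 CPM in arsenic colon, 17.4 to 28.6 in arsenic cecum, 62.1 to 94.7 in control colon and 18.3 to 26.1 in control cecum, and their part in the Sult4a1 difference was not tested.

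Among glucuronosyltransferases the sharpest contrast was between Ugt2a3, known in humans for bile acid conjugation, and Ugt8a, which adds galactose to ceramide. Ugt2a3 had 24.4, 107.9, 15.9, 50.9 and 196.9 CPM in ileum arsenic 11 to 15, and 104.6, 63.7, 31.4 and 43.8 CPM in ileum control 1, 2, 3 and 5. It had 1 count in all 5 arsenic cecum libraries together and 1 count in all 4 control cecum libraries. The ratio of ileum over cecum was 5610 on arsenic feed (95% exact interval 1006 to 221611) and 3747 on control feed (672 to 148036), where the intervals cover counting error only. Ugt8a gave the mirror image with 844 counts in arsenic cecum and 1 in arsenic ileum, and 544 counts in control cecum and 2 in control ileum. Its cecum over ileum ratio was 934 on arsenic feed (167 to 36922) and 312 on control feed (85.8 to 2579). The 250 bases before each start are shown because these genes are switched almost fully between regions. Both come from RefSeq, build GRCm38.p6, minus strand, Ugt2a3 at chr5:87337196-87337445 and Ugt8a at chr3:125938653-125938902. Capitals mark GTTAAT, found from -54 to -49 and from -47 to -42 in Ugt2a3 and not found in Ugt8a, and GC content was 30.4% in Ugt2a3, 76.8% in Ugt8a and 52.4% at the median of all windows.
Ugt2a3: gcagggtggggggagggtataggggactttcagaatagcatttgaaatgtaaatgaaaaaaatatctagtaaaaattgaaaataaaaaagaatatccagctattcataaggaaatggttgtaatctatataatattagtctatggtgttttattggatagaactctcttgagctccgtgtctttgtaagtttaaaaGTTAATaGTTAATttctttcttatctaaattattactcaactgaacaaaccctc
Ugt8a: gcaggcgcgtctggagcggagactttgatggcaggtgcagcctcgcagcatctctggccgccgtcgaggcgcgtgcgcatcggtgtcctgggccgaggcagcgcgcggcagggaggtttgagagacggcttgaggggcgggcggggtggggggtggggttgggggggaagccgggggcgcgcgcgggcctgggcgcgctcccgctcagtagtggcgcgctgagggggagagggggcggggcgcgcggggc

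The Ugt2a and Ugt2b genes form a cluster of 10 genes on chromosome 5 (chr5:86889767-87490871), and its members did not share a regional pattern. Ugt2b5, whose gene lies 185 kb from Ugt2a3, averaged 22.9 ± 13.4 CPM in arsenic colon, 60.9 ± 6.23 in arsenic cecum and 14.98 ± 8.07 in arsenic ileum. Its cecum to ileum difference passed on arsenic feed (log2 2.01 ± 0.43, adjusted p 0.00166) and not on control feed (2.16 ± 0.90, 0.0609). Ugt2b34 was 1.57-fold higher in cecum than in ileum on arsenic feed (log2 0.65 ± 0.19, adjusted p 0.00903) and 1.61-fold on control feed (0.69 ± 0.10, 4.22e-05). Ugt2b36 was instead lowest in the colon, where it fell below cecum by 1.74 ± 0.35 log2 on arsenic feed (adjusted p 0.00131) and by 1.90 ± 0.51 on control feed (0.00909). Ugt2b35 had group means between 13.6 and 22.0 CPM. Its colon fell below ileum by 0.61 ± 0.12 log2 on arsenic feed (adjusted p 0.000661), against -0.10 ± 0.18 on control feed, which did not pass (0.671). In colon against cecum it passed on arsenic feed (-0.37 ± 0.12, 0.0293), a call lost without cecum arsenic 14 or colon arsenic 11 or 15, and not on control feed (-0.20 ± 0.18, 0.397).

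The 9 Ugt1a genes on chromosome 1 (chr1:88055388-88220002) each join a first exon of their own to the same 4 following exons, so reads in the shared exons cannot be given to 1 gene. The join is shown for the 3 members with the most counts because it bears on every Ugt1a value. Small letters are the last 30 bases of each first exon and capitals the first 30 bases of the shared second exon, which starts at base 88215044, from the annotated transcripts of build GRCm38.
Ugt1a1: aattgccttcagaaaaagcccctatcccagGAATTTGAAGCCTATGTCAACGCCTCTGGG
Ugt1a6a: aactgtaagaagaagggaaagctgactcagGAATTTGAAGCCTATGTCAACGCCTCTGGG
Ugt1a7c: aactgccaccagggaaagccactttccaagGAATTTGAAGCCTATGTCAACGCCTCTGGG
The share of exon sequence that belongs to 1 gene was 17.3% for Ugt1a1, 49.7% for Ugt1a6a and 45.4% for Ugt1a7c. The annotation of Ugt1a7c runs 998 bases past the end of the others, and these bases make up 52.1% of its unique exon sequence. Reads there count as Ugt1a7c whichever first exon they come from. With that limit, Ugt1a7c averaged 126.1 ± 44.5 CPM in arsenic colon, 250 ± 36.9 in arsenic cecum and 63.6 ± 19.4 in arsenic ileum, and 124.5 ± 49.7 in control colon, 320.1 ± 44.0 in control cecum and 50.5 ± 10.4 in control ileum. Cecum was 3.90-fold above ileum on arsenic feed (log2 1.96 ± 0.23, adjusted p 6.16e-06) and 6.31-fold on control feed (2.66 ± 0.28, 5.07e-06). Ugt1a6a, a phenol glucuronosyltransferase, was 3.62-fold higher in cecum than in ileum on arsenic feed (log2 1.86 ± 0.30, adjusted p 0.000146) and 2.87-fold on control feed (1.52 ± 0.38, 0.00420).

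The carboxylesterases lie in 2 clusters on chromosome 8. The Ces1 cluster with Ces5a holds 9 genes on the minus strand (chr8:93020214-93535830) and the cluster of Ces2, Ces3 and Ces4a holds 10 genes on the plus strand (chr8:104734003-105150109). Within the first cluster, Ces1g, a lipid-metabolising esterase of liver and gut, and Ces1c, the esterase that liver secretes into plasma, had opposite patterns although 171 kb separate them. Ces1g averaged 82.7 ± 62.2 CPM in arsenic colon, 555.9 ± 50.5 in arsenic cecum and 1.59 ± 0.64 in arsenic ileum. On control feed it averaged 70.3 ± 85.5 in colon, 508.2 ± 13.03 in cecum and 1.49 ± 0.43 in ileum. Cecum was 347-fold above ileum on arsenic feed (log2 8.44 ± 0.63, adjusted p 1.63e-07) and 340-fold on control feed (8.41 ± 1.29, 0.000182). Ces1c had 2 counts in arsenic cecum and 273 in arsenic ileum, and 3 counts in control cecum and 326 in control ileum. Its ratio of ileum over cecum was 123 on arsenic feed (95% exact interval 33.8 to 1024) and 94.9 on control feed (32.2 to 462), for counting error only. The bases before both starts are shown because these genes of 1 cluster run in opposite directions. They come from RefSeq, build GRCm38.p6, minus strand, Ces1g at chr8:93337309-93337459, after 99 bases in an annotated exon were left out, and Ces1c at chr8:93131284-93131533. Capitals mark TTTATG, the element bound by the intestinal CDX factors, from -208 to -203 in Ces1g and from -95 to -90 in Ces1c.
Ces1g: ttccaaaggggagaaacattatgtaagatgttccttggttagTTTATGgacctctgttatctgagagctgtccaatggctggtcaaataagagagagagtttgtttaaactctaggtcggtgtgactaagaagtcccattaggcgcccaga
Ces1c: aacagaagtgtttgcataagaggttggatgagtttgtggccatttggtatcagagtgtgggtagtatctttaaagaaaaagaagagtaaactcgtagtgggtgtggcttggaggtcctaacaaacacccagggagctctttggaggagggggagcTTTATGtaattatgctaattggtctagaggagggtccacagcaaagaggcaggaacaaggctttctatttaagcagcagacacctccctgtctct

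Ces1d, Ces1e and Ces1f also had their highest group means in the cecum, with smaller steps, and Ces1b and Ces1h stayed under 1 CPM in every group. Ces1e, the esterase that holds beta-glucuronidase in the endoplasmic reticulum, was 1.84-fold higher in cecum than in ileum on arsenic feed (log2 0.88 ± 0.20, adjusted p 0.00180) and 2.29-fold on control feed (1.19 ± 0.27, 0.00210). Ces1f was 2.58-fold higher on arsenic feed (1.37 ± 0.29, 0.00139) and 3.19-fold on control feed (1.67 ± 0.56, 0.0254). The control feed call for Ces1f was lost without ileum control 1, 2 or 5 or cecum control 4, with adjusted p up to 0.0685, and with no filter on low counts (0.0637). Ces1d, a triacylglycerol hydrolase of liver and fat tissue, averaged 164.8 ± 12.8 CPM in arsenic cecum and 76.1 ± 41.8 in arsenic ileum, and 139.4 ± 12.8 in control cecum and 74.8 ± 21.8 in control ileum. Its difference passed on arsenic feed (log2 1.10 ± 0.41, adjusted p 0.0370) and not on control feed (0.89 ± 0.47, 0.133). The arsenic feed call was lost in 8 of 14 fits that left out 1 library, namely each of the 5 cecum libraries and ileum arsenic 13, 14 and 15, and also with upper-quartile scaling (0.0509), with no filter on low counts (0.0913) and without ileum arsenic 14 and 15 together (0.86 log2, 0.114).

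In the Ces2 cluster, Ces2b and Ces2c rose in the large intestine and Ces2e fell along it. Ces2b averaged 23.3 ± 9.60 CPM in arsenic colon, 47.2 ± 11.8 in arsenic cecum and 4.002 ± 1.67 in arsenic ileum, and cecum was 11.6-fold above ileum there (log2 3.54 ± 0.32, adjusted p 6.96e-07) and 10.7-fold on control feed (3.42 ± 0.53, 0.000171). Ces2c, a drug and lipid ester hydrolase of intestine, averaged 598.4 ± 59.5 CPM in arsenic colon, 940.6 ± 141.5 in arsenic cecum and 199.8 ± 64.7 in arsenic ileum, and its cecum was 4.67-fold above ileum on arsenic feed (2.22 ± 0.19, 1.31e-07) and 4.14-fold on control feed (2.05 ± 0.11, 4.06e-09). Ces2e averaged 416.8 ± 81.2 CPM in arsenic colon, 1143 ± 120.6 in arsenic cecum and 1228 ± 344.8 in arsenic ileum. Its colon fell below cecum by 1.37 ± 0.19 log2 on arsenic feed (adjusted p 5.25e-05) and by 1.42 ± 0.18 on control feed (2.98e-05), while cecum and ileum were not told apart (-0.11 ± 0.17 and -0.27 ± 0.19). Ces2c shares 22.1% and Ces2a 11.4% of their 75-base words with other genes, so some of their reads may have gone uncounted or to a relative.

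In the ileum, 1 of 28 tested members was called between diets, where 7.3% of all 16305 genes were (4.02% higher and 3.28% lower), and no member was called lower. An unadjusted p under 0.05 was found for 7 members, a cut for which the share of all genes was not counted. The called member was Ces2f, a carboxylesterase of the Ces2 cluster, which was near the limit of detection. It had 15, 12, 20, 21 and 14 counts in ileum arsenic 11 to 15, and 4, 5, 4 and 6 counts in ileum control 1, 2, 3 and 5. The groups did not overlap, which held for 13.4% of all genes, and the means were 0.939 ± 0.168 CPM in arsenic ileum and 0.270 ± 0.042 CPM in control ileum (SD, n = 5 and 4). The difference was 1.73 ± 0.29 log2 with an adjusted p of 0.0110. Ces2f passed the low-count filter only because all 5 arsenic libraries lay above 0.570 CPM, while none of the 4 control libraries did. The filter thus let it in through the group where it was high. With no filter on low counts edgeR still called it (adjusted p 0.0188), and a filter of 1 CPM removed it. The call was lost without ileum control 2 (adjusted p 0.0541), and it held without ileum arsenic 14 and 15 together (0.0409).

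Ces2g, the next gene at 1.67 kb from Ces2f, leaned the same way without passing. It had 14.3, 24.5, 6.44, 32.3 and 34.0 CPM in ileum arsenic 11 to 15, and 9.44, 7.20, 7.06 and 7.30 CPM in ileum control 1, 2, 3 and 5. Of the arsenic libraries 4 lay above and 1, arsenic 13, lay below every control library. The difference of 1.48 ± 0.42 log2 had an adjusted p of 0.0652 in edgeR, 0.00344 in DESeq2 and 0.0150 in edgeR without ileum arsenic 13, and it was 0.95 ± 0.38 (0.181) without ileum arsenic 14 and 15 together. In the 5 arsenic libraries the order of Ces2g was exactly opposite to that of Fabp6, which had 3879, 982, 4180, 6.13 and 1.33 CPM. Ces2g was the only 1 of 21 members to do so, the other 20 ran neither way, and in control ileum Ces2g ran neither way. The part of ileal position in the result was not tested.

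Sult2b1 had 126.8, 206.6, 161.9, 134.4 and 255.6 CPM in ileum arsenic 11 to 15, and 133.6, 87.0, 105.2 and 110.3 CPM in ileum control 1, 2, 3 and 5. Only arsenic 11 lay inside the control range, and the difference of 0.66 ± 0.21 log2 did not pass in edgeR (adjusted p 0.0829) while DESeq2 called it (0.0328). Without ileum arsenic 11 edgeR called it as well (0.0469). Ugt2b35, a Ugt2b enzyme, averaged 22.0 ± 2.59 CPM in arsenic ileum and 15.5 ± 2.58 CPM in control ileum, a difference of 0.46 ± 0.14 log2 (edgeR adjusted p 0.0636, DESeq2 0.0215), and edgeR called it without ileum arsenic 12 (0.0486). Ces2a, one of the more abundant carboxylesterases, averaged 333.1 ± 110.5 CPM in arsenic ileum and 514.4 ± 181.3 CPM in control ileum, and its difference of -0.67 ± 0.29 log2 did not pass (adjusted p 0.180). A fit of all 27 libraries called Ces2f, Ces2g, Sult2b1 and Ugt2b35. The median over the 28 members was 0.04 log2, against -0.00 over all genes.

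In the cecum, 4 of 25 tested members were called between diets, 3 higher and 1 lower on arsenic feed, where 25.2% of all 15590 genes were called (11.3% higher and 13.9% lower). All 4 differences were small, between 1.22-fold and 1.26-fold, and no member had groups free of overlap, which 22.2% of all genes had. Ces1d had 171.9, 150.5, 164.6, 154.8 and 182.3 CPM in cecum arsenic 11 to 15, and 142.9, 134.0, 155.3 and 125.4 CPM in cecum control 1, 2, 4 and 5. Its difference was 0.28 ± 0.07 log2 (adjusted p 0.0121), and all 9 fits that left out 1 library kept it. Summed adipocyte markers, a cell type with Ces1d of its own, were 67.0 to 321.5 CPM in arsenic cecum and 144.6 to 223.4 CPM in control cecum.

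Sult1c2 had 49.3, 38.6, 50.5, 50.8 and 48.8 CPM in cecum arsenic 11 to 15, and 38.8, 33.0, 39.0 and 44.5 CPM in cecum control 1, 2, 4 and 5. It was higher by 0.33 ± 0.10 log2 (adjusted p 0.0229), with arsenic 12 inside the control range, and the call was lost without cecum arsenic 13 or cecum control 1 or 2. Ces1e had 23.0, 23.1, 25.3, 27.5 and 28.9 CPM in cecum arsenic 11 to 15, and 17.9, 19.7, 23.1 and 23.7 CPM in cecum control 1, 2, 4 and 5. It was higher by 0.31 ± 0.10 log2 (adjusted p 0.0344) and was lost in 5 of 9 fits, without cecum arsenic 13, 14 or 15 or cecum control 1 or 2. The largest adjusted p in those fits was 0.0701 for Sult1c2 and 0.113 for Ces1e.

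Ugt1a7c was the only member called lower. It had 250.4, 237.0, 209.5, 243.2 and 310.0 CPM in cecum arsenic 11 to 15, and 299.2, 308.2, 385.0 and 288.2 CPM in cecum control 1, 2, 4 and 5. The arsenic 15 library lay inside the control range and the other 4 lay below it. The difference of -0.32 ± 0.11 log2 had an adjusted p of 0.0488, which passed in 1 of 9 fits that left out 1 library, without cecum arsenic 15 (0.00442). It also missed under upper-quartile scaling and under both other filters.

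The split of cecal calls depended on scaling. With TMM, 1768 genes were higher and 2165 lower on arsenic feed, and with upper-quartile scaling 2448 were higher and 1627 lower. With upper-quartile scaling 5 members were called, all higher: Ces1d, Ces1e, Ces1g, Sult1c2 and Sult1d1. None of the 4 calls passed in a fit of all 27 libraries. Tissue markers differed between the diets in the cecum as well. Epithelial markers summed to 16143 to 19144 CPM in arsenic cecum and 18911 to 21254 CPM in control cecum, with 3 of 7 called lower. Large intestine markers had 3 of 5 tested called lower, with a median of -0.61 log2 and sums of 26784 to 31426 CPM in arsenic cecum and 31117 to 39216 CPM in control cecum. Smooth muscle markers had 3 of 7, fibroblast markers 2 of 5 and T cell markers 4 of 5 called higher, and their part in the member differences was not tested.

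In the colon none of 26 tested members was called by edgeR or DESeq2, and 0.649% of all 16492 genes were called by edgeR (0.364% higher and 0.285% lower). An unadjusted p under 0.05 was found for 1 member, again without a share of all genes at that cut. No member had groups free of overlap there among those tested, which 7.82% of all genes had. The spread between libraries was wide. The median coefficient of variation of members was 25.9% in arsenic colon and 39.9% in control colon, against 10.6% in arsenic cecum and 12.1% in control cecum. The precision differed between members, with colon differences of 0.24 ± 1.10 log2 for Ces1g and 0.11 ± 0.10 for Ces2c. The count stayed at 0 without colon control 1.

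The arsenic effect differed among the 3 regions for 1 of 34 tested members, Ces2h, with an adjusted p of 0.0374 in edgeR's F-test, where 7.62% of all 17763 genes passed. Ces2h had 9, 9, 8 and 13 counts in colon arsenic 11, 12, 13 and 15, and 2, 1, 5, 3 and 2 counts in colon control 1 to 5. The colon groups of Ces2h, which the colon test did not include, did not overlap, at 0.522 ± 0.126 CPM in arsenic colon and 0.142 ± 0.087 CPM in control colon. In the cecum it averaged 0.578 ± 0.266 CPM on arsenic feed and 0.558 ± 0.094 CPM on control feed, and in the ileum 0.852 ± 0.215 and 0.881 ± 0.277 CPM in the same order of feeds. With so few counts the call was lost in 11 of 27 fits that left out 1 library, without colon arsenic 11, 12 or 15, colon control 1, 2 or 5, cecum arsenic 13, cecum control 1 or 4, or ileum control 2 or 3. The adjusted p of those 27 fits ran from 0.0155 to 0.0956. The call was also lost without ileum arsenic 14 and 15 together, and DESeq2 gave no adjusted p.

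**Figure D3:**
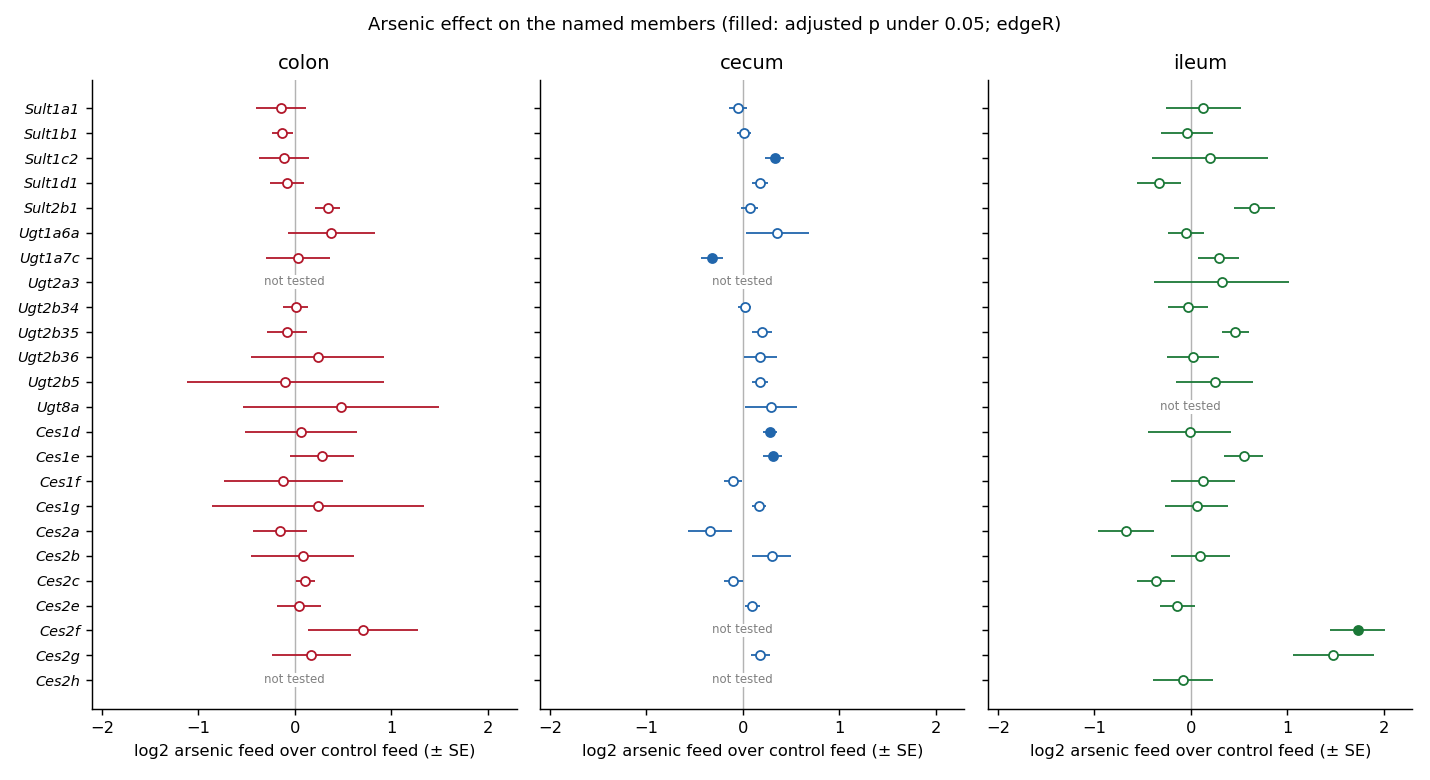
Log2 difference of arsenic feed over control feed with its SE in the colon, cecum and ileum for the named members; filled points have an adjusted p under 0.05 in edgeR. Filled are Ces2f in the ileum and Sult1c2, Ugt1a7c, Ces1d and Ces1e in the cecum, none is filled in the colon, and the SE bars are shortest in the cecum.

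Within the colon many named members had the same library lowest or highest. How many of all genes did so was not counted, so these orders are not shown to be particular to the members. Of 22 named members with at least 1 CPM, 18 were lowest of the 4 arsenic libraries in colon arsenic 11 and 15 were highest in colon arsenic 12. In control colon, libraries 3 and 4 lay below the other 3 for 16 members and above them for 4, namely Ces2f, Ces2g, Sult1b1 and Sult2b1. Hoxb13 had 161.8, 40.2, 91.4 and 73.6 CPM in colon arsenic 11, 12, 13 and 15, and 0, 68.7, 238.9, 221.6 and 45.9 CPM in colon control 1 to 5. In arsenic colon 15 of 22 members ran exactly opposite to this order, and 2, Ces2g and Sult2b1, ran with it. In control colon 5 of 21 ran exactly opposite to Hoxb13, 1 ran with it and 15 did neither.

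Car1, a carbonic anhydrase of surface colonocytes, had 2442, 9421, 4690 and 7363 CPM in colon arsenic 11, 12, 13 and 15. This order was exactly the reverse of that of Hoxb13. The same 15 members therefore had to run with Car1, which is no separate result. The distal ileum gene Fabp6 also had 15 members with its order and 2 opposite in arsenic colon, while all 21 did neither in control colon. In control colon 3 of 21 ran with Car1, 1 ran opposite and 17 did neither. Ces1g had 14.3, 152.9, 50.4 and 113.3 CPM in colon arsenic 11, 12, 13 and 15, and 212.2, 80.4, 3.74, 5.78 and 49.3 CPM in colon control 1 to 5. Ugt2b5 had 5.93, 37.5, 19.8 and 28.3 CPM in those arsenic libraries, and 54.7, 34.9, 1.08, 1.51 and 31.0 CPM in the control libraries. Within each feed both genes were lowest in the library with the most Hoxb13. These libraries are few, the order was noticed in the same data, and the part of colon position in any member's diet result was not tested.

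Ileum libraries differed in a like manner, again without a count over all genes. Ileum arsenic 11 and 13, which had the most Fabp6, lay above the other 3 for Ces1f, Ces2b, Sult1c2, Ugt2b36 and Ugt2b5, and below them for Ces1e, Ces2g, Sult1b1, Ugt2a3 and Ugt2b34. Ileum arsenic 15 was the highest library for 14 of 21 members. Of 21 members in arsenic ileum, 2, Ces1d and Sult1a1, ran with Adipoq, an adipocyte gene, and 19 ran neither with it nor opposite. Ces1d had 130.3, 94.4, 43.6, 86.7 and 25.6 CPM, Sult1a1 32.5, 22.4, 13.4, 20.3 and 6.31 CPM, and Adipoq 245.2, 186.3, 62.1, 147.8 and 13.6 CPM in ileum arsenic 11 to 15. Their order was the same in all 5 libraries. Ces1d also kept the order of Adipoq in the 4 control libraries, and Sult1a1 did not. In control cecum Sult1a1 ran opposite to Adipoq. Summed adipocyte markers were 181.0 to 1736 CPM in arsenic ileum and 560.5 to 1118 CPM in control ileum, and their part in the ileal levels of Ces1d and Sult1a1 was not tested.

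**Figure D4:**
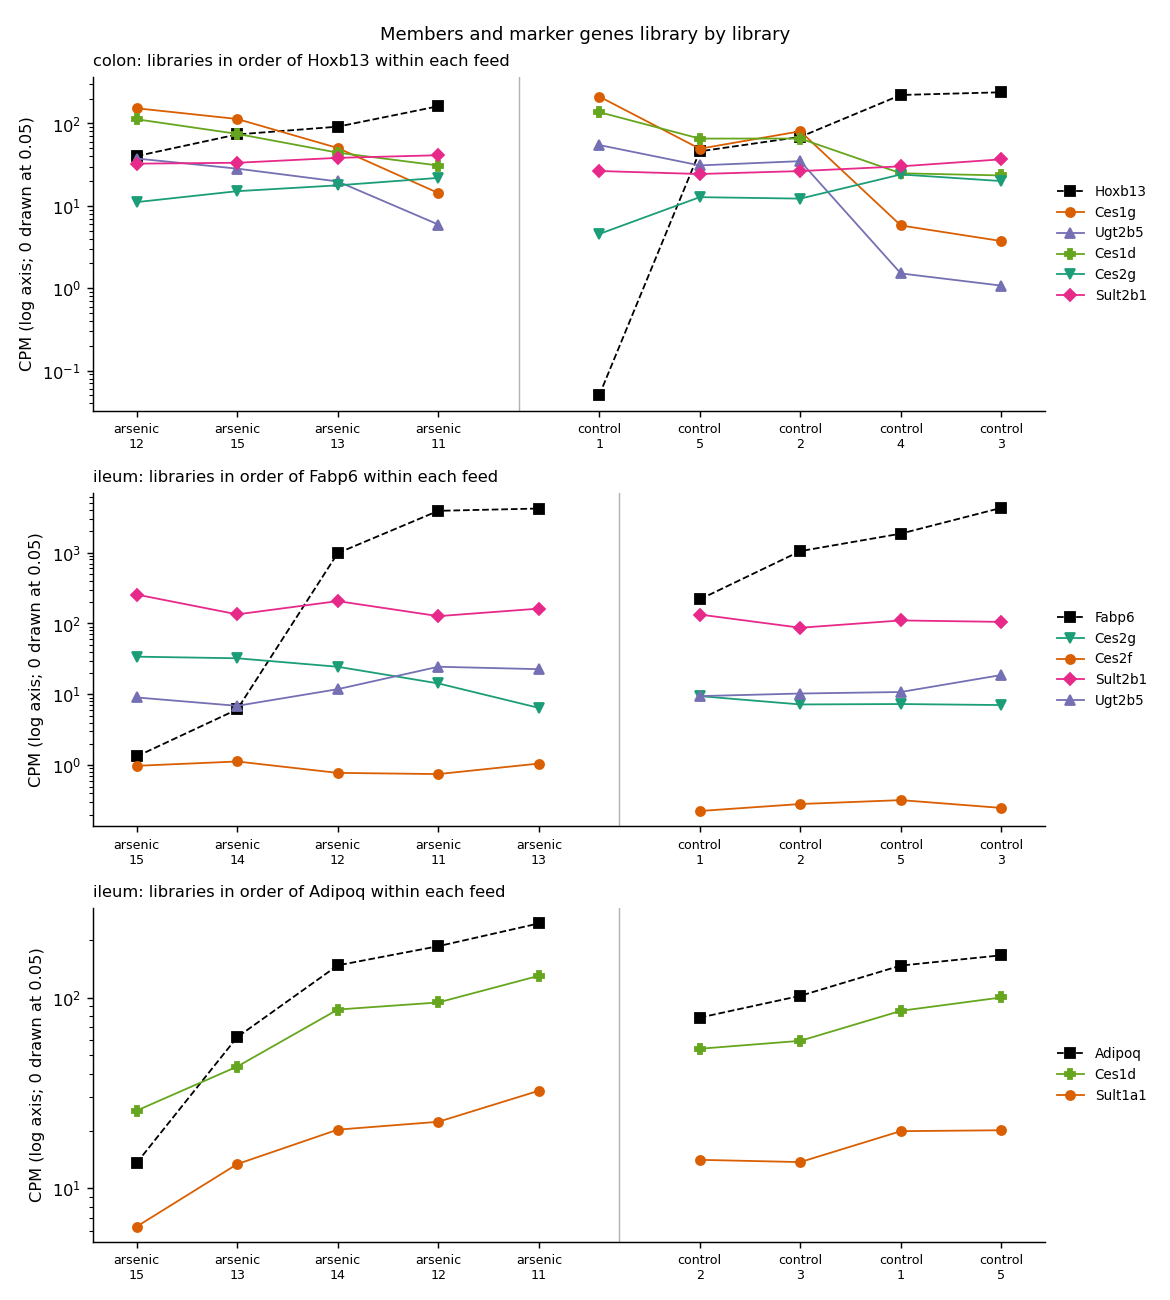
CPM on a log axis in each colon library (top) and each ileum library (middle and bottom), arsenic libraries left and control libraries right, ordered within each feed by a marker gene (dashed, squares); a level of 0 is drawn at 0.05. In the arsenic colon Ces1g, Ugt2b5 and Ces1d decline where Hoxb13 increases. In the control colon they are lowest in the library with the most Hoxb13 but do not decline throughout. In the arsenic ileum Ces2g declines as Fabp6 increases, Ces2f stays between 0.750 and 1.13 CPM, and Ces1d and Sult1a1 follow Adipoq.

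Genes that supply, aid or govern the 3 families were also compared between diets, in lists with 14, 11, 9, 20, 14 and 24 tested genes. Over all lists 31 genes were called in the cecum, where 25.2% of all genes were, and 8 in the ileum, where 7.3% of all genes were. No list was tested as a set. Shares of 13.9% lower and 11.3% higher over all genes stand behind each cecal count below. Of 14 tested genes for sulfate uptake and PAPS supply, 1 was higher and 7 were lower on arsenic feed in the cecum, with a list median of -0.19 log2 against 0.02 over all genes. The sulfate exchanger Slc26a1 averaged 34.5 ± 1.32 CPM in arsenic cecum and 64.2 ± 7.05 CPM in control cecum (log2 -0.86 ± 0.08, adjusted p 6.09e-06). Slc26a2, a second sulfate exchanger, averaged 1243 ± 104.0 CPM in arsenic cecum and 1868 ± 270.9 CPM in control cecum (-0.55 ± 0.09, 0.000543), and the PAPS synthase gene Papss1 120.3 ± 5.98 and 162.5 ± 4.04 CPM in the same order of feeds (-0.40 ± 0.05, 0.000140). In the ileum Slc26a2 was lower as well, with 198.7 ± 67.9 CPM in arsenic ileum and 404.2 ± 62.0 CPM in control ileum (-1.07 ± 0.23, 0.0247), a call lost without any 1 of the 4 ileum control libraries or ileum arsenic 12. With upper-quartile scaling 3 genes of this list were higher and 5 lower in the cecum, with Slc26a1, Slc26a2 and Papss1 still among the lower.

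Of 11 tested genes for UDP-glucuronate supply, 1 (Uxs1) was higher and 3 (Hk2, Ugp2 and Pgm2) were lower in the cecum, and none was called in the ileum. Hexokinase 2, Hk2, averaged 224.8 ± 56.4 CPM in arsenic cecum and 652.1 ± 66.4 CPM in control cecum (log2 -1.50 ± 0.19, adjusted p 0.00107). The call for Ugp2, the gene of UDP-glucose pyrophosphorylase, sat at the threshold and was lost with upper-quartile scaling. Gusb, the beta-glucuronidase gene, whose product undoes glucuronidation, was not called in the cecum with TMM scaling (log2 0.23 ± 0.08, adjusted p 0.0584) and was called higher with upper-quartile scaling. Among 20 other ester and amide hydrolases 4 were higher (Bche, Cmbl, Ephx1 and Abhd10) and 3 lower (Lypla2, Lipa and Esd) in the cecum, or 5 higher and 1 lower (Lypla2) with upper-quartile scaling, and 2 were higher (Faah and Bphl) in the ileum.

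Among 14 carriers of conjugates, the basolateral organic solute transporter genes Slc51a and Slc51b were higher in the cecum and Slco2a1 was lower, while in the ileum Abcc3 and Slco2b1 were higher. Abcc3, which exports glucuronides across the basolateral membrane, averaged 77.1 ± 9.50 CPM in arsenic ileum and 47.3 ± 3.65 CPM in control ileum (log2 0.66 ± 0.11, adjusted p 0.0102), a call lost without ileum control 2 (0.0522). Of 24 regulators of these families, 9 were lower and none higher in the cecum, or 6 lower and 1 higher (Nr1i2) with upper-quartile scaling, where Foxa1, Nr5a2 and Ppard were not called, and 3 (Keap1, Rxra and Cdx2) were higher in the ileum. Hnf4a averaged 1116 ± 97.6 CPM in arsenic cecum and 1613 ± 50.4 CPM in control cecum (-0.49 ± 0.07, 0.000230). Cdx2 averaged 317.6 ± 26.5 CPM in arsenic cecum and 427.8 ± 55.5 CPM in control cecum (-0.39 ± 0.09, 0.00528), and 225.1 ± 33.9 CPM in arsenic ileum and 124.4 ± 19.6 CPM in control ileum (0.82 ± 0.14, 0.0125). The arsenic effect on Cdx2 differed among regions (adjusted p 0.0207), and its ileum call was lost without ileum control 2. Of the 31 cecal calls in these lists 19 held in every fit that left out 1 library, of the 8 ileal calls none did, and no list had a call in the colon.

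Short motifs were counted on both strands of the 56 RefSeq promoter windows that 52 members have, each reaching from 250 bases before to 50 bases after a start. GTTAAT occurred in 15 of 56 member windows (26.8%) and in 7.10% of all 32851 windows. Of the 23 windows of named members 4 held it, those of Sult1a1, Sult1d1, Ugt1a6a and Ugt2a3, whose regional patterns differ. Other members with it included Sult2a3 to Sult2a6, Sult3a2, Ugt1a10 and Ugt3a1, which had no count in any library. The same 23 windows held TTTATG in 4 and TATAAA in 2, so the shares over all members do not describe the named ones. TTTATG occurred in 8 windows (14.3%, against 11.9% of all), TATAAA in 14 (25%, against 13.6%), and CAAAGTCC, a half-site of HNF4, in 1 (1.79%, against 1.42%), that of Sult1b1. TGACNNNGC, the core of the antioxidant response element, was in 0 of 56 windows, and 12.4% of all windows held it. None of these motifs contains another, windows of neighbouring relatives share descent, and a match is a description of letters only.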

How the data were processed

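The authors deposited a table of raw counts of reads per Ensembl gene for 27 libraries. HTSeq 0.6.0, HISAT2 2.1.0, DESeq2 1.6.3 and SAMtools appear in the submitters' processing notes. The sources used here do not give the genome build, annotation or strand setting, and genes that overlap others or share sequence are therefore uncertain. Symbols came from GENCODE M21 (52403 identifiers matched, 147 did not) and 7 pseudogenes were left out.

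Tests used edgeR 4.0.16 in R 4.3.3: filterByExpr (count at least 10, total at least 15), TMM scaling and robust quasi-likelihood F-tests within each region between diets and within each diet between regions, plus the interaction. Benjamini-Hochberg p-values were adjusted over all genes tested, with a threshold of 0.05. Differences are log2 ± SE, and levels are CPM scaled over all 27 libraries, as mean ± SD. The script was tested on simulated counts. Alternatives were DESeq2 1.42.0, RLE and upper-quartile scaling, a filter of 1 CPM and none, a fit of all 27 libraries, a replicate block and leaving out each library.

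The rule for names takes members with a mean of at least 10 CPM in a group or a call in a diet test; Sult4a1, Ces1c, Ugt1a1 and single members named in counts were added after their values were seen. Members, lists and rule were chosen with earlier results of these data known. The pathway and marker lists held 163 genes, of which 161 were matched.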

Additional observations from a re-analysis of the deposited data

Results flagged for a closer look

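For each named member and group, the library at either end was set against the rest with Dixon's test at its 95% level, which by chance picks about 1 in 20 groups. Of 144 sets of a gene and a group, 9 held a library that stood apart. Several are single counts or short gaps in small groups. Ces2g had 9.44 CPM in ileum control 1, against 7.06 to 7.30 CPM in the other 3. Sult1c2 had 38.6 CPM in cecum arsenic 12, against 48.8 to 50.8 CPM in the other 4. Ugt2b35 had 19.4 CPM in ileum control 3, against 14 to 14.6 CPM, and Ugt2b5 had 18.7 CPM there, against 9.44 to 10.8 CPM. Ugt2a3 stood apart at 0.0639 CPM in cecum arsenic 11 and at 0.0705 CPM in cecum control 4, where all other libraries of those groups had 0. It was also apart at 0.864 CPM in colon control 4, against 0 in the other 4, and at 0 CPM in colon arsenic 12, against 0.434 to 0.520 CPM. Ugt8a had 0.05 CPM in ileum arsenic 11 and 0 in the other 4. The test of the difference itself marked Ces2h, whose arsenic effect differed among the 3 regions with an adjusted p of 0.0374.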

How the results depend on the processing

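No call of a named member reversed direction in any alternative. In the ileum the count of members called between diets was 1, with 3 in DESeq2, 4 in the fit of all 27 libraries, 0 with the filter of 1 CPM and 0 to 3 when 1 library was left out. DESeq2 gave no adjusted p for Ces2f, and the 1 CPM filter removed it. In the cecum the count of 4 became 0 in the fit of all 27 libraries, whose pooled spread includes the more variable ileum and colon, and 1 to 5 when 1 library was left out. Without a filter, Ces2f, Ugt1a2 and Ugt1a5 were also called. In the colon the count of 0 became 1 (Ces2h, adjusted p 0.0107) in the fit of all 27 libraries. The interaction count of 1 became 0 in DESeq2, with the 1 CPM filter, with no filter and without ileum arsenic 14 and 15, and ran from 0 to 2 when 1 library was left out. Colon against cecum on arsenic feed ran from 12 to 22. The cause of these moves was not tested beyond what is named.

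Replicate numbers recur across regions, but the labels do not say that they mark the same mouse. The correlation of deviations was -0.108 to 0.248 for same-numbered libraries, with 13 of 24 pairs over 0.1, and -0.256 to 0.205 for differently numbered libraries. Between colon and cecum on control feed, 3 of 4 same-numbered pairs were over 0.1, and differently numbered pairs reached 0.0896. Between cecum and ileum on control feed, 0 of 3 were, and differently numbered pairs reached 0.111. Between colon and ileum on control feed 1 of 4 was, and differently numbered pairs reached 0.145. On arsenic feed it was 3 of 5 for cecum and ileum, 3 of 4 for colon and cecum, and 3 of 4 for colon and ileum. Differently numbered pairs reached 0.205, 0.130 and 0.108 there. Same-numbered libraries were thus more alike in several comparisons, but the labels do not settle whether the numbers mark pairs. If they do, the main regional and interaction tests, which were unpaired, left that pairing out. A replicate block was fitted as an alternative. With the replicate block, members called were 20, 16 and 16 on arsenic feed and 15, 15 and 15 on control feed for cecum against ileum, colon against cecum and colon against ileum, and 1 for the interaction. In cecum against ileum the block ended the calls for Ces1d on arsenic feed (adjusted p 0.0503) and Ces1f on control feed (0.108).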
